A study of Mus musculus with 49 samples.

Results

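The splicing factor genes described here are the 51 genes, of 20489 rows present in all 4 expression tables of the series, whose mouse symbols begin with Srsf followed by a number, with Hnrnp, with Sf3a or Sf3b followed by a number, or with Snrp followed by a letter from a to g or a number. They comprise 11 Srsf genes, 20 Hnrnp genes, 9 Sf3a and Sf3b genes and 11 Snrp genes, and all 51 passed the filter on low values in every comparison below. RNA-seq was performed on mouse embryonic stem (ES) cells of strain 129S6/SvEvTac, in which p53 was activated with 1 µM doxorubicin, a DNA-damaging topoisomerase poison. Most libraries came from cells whose endogenous Trim24 gene carried a degron tag, so that the Trim24 protein, a bromodomain cofactor recruited by p53, could be removed with 500 nM of the degrader dTAG13. The main time course held tagged cells given both compounds for 2, 4, 8 or 12 h, tagged cells given doxorubicin alone for the same times, and tagged cells at 0 h without either compound, with 3 libraries in each group.

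Further tagged cells were sequenced without p53 activation, 3 libraries after dTAG13 and 3 untreated. The treatment label of those 3 untreated libraries reads as activated p53, whereas their titles read as untreated, and they were grouped by title. Wild-type ES cells without the tag contributed 2 libraries after doxorubicin, whose duration their labels do not give, and 2 untreated libraries. In a separate experiment at 4 h of doxorubicin, named here the RING experiment after the ubiquitin ligase domain of Trim24, 4 libraries came from tagged cells that also received dTAG13, 4 from cells whose Trim24 carried replaced RING cysteines (titled LigNull, here ligase-null) and 4 from tagged cells with doxorubicin alone. The tagged and ligase-null cells were lines derived from picked clones, so line and genotype cannot be told apart in the ligase-null comparisons. Trim24 was removed as protein, so Trim24 RNA is no check of its loss.

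Splicing removes introns from pre-mRNA through the spliceosome, which assembles from small nuclear ribonucleoproteins (snRNPs) on signals in the intron. Snrp genes encode snRNP proteins, among them the Sm proteins that form a ring on each spliceosomal snRNA, and the SF3A and SF3B complexes of the U2 snRNP recognise the branch point. SR proteins, encoded by Srsf genes, bind exons through RNA recognition motifs and generally promote the use of nearby splice sites, whereas heterogeneous nuclear ribonucleoproteins (hnRNPs) coat nascent RNA and often oppose them. Many genes of the SR and hnRNP families carry ultraconserved cassette exons that route their own transcripts to decay, so the abundance of their RNA is tightly controlled in mammalian cells.

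The promoters of the 4 genes on which the account below turns most are shown so that their sequences can be read beside the values: Srsf12, with the largest rise, Srsf1 and Hnrnpc, with the largest falls at 12 h, and Srsf5, which rose while most Srsf genes fell. Each line runs 5′ to 3′ from 250 bases before the RefSeq start site to 50 bases from it onward, taken from RefSeq on GRCm38.p6. Capitals mark the decamer bound by a p53 dimer in Srsf12, CCAAT boxes on either strand in Srsf1 and Hnrnpc, and CCGGAAG, a motif bound by ETS factors, on either strand in Srsf5. The Srsf12 window is chr4:33209022-33209321 on the plus strand, the Srsf1 window chr11:88047123-88047422 on the plus strand, the Hnrnpc window chr14:52103972-52104271 on the minus strand and the Srsf5 window chr12:80945249-80945548 on the plus strand.
Srsf12: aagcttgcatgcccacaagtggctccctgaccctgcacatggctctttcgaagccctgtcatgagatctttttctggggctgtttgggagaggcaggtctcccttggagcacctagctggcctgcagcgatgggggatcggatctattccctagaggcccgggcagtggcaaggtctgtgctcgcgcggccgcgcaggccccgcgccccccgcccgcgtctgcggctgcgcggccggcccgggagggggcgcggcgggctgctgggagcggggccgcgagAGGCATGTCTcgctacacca
Srsf1: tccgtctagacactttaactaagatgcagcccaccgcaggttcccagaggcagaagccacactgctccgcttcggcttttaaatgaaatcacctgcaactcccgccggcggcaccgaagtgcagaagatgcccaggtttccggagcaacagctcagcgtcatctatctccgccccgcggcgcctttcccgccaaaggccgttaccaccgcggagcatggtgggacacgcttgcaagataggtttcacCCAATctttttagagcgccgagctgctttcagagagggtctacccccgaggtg
Hnrnpc: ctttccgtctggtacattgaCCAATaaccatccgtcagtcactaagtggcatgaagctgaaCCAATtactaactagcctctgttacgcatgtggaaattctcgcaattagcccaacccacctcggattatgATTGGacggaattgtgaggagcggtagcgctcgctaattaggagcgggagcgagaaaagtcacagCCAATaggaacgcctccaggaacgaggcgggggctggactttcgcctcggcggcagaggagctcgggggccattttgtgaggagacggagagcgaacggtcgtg
Srsf5: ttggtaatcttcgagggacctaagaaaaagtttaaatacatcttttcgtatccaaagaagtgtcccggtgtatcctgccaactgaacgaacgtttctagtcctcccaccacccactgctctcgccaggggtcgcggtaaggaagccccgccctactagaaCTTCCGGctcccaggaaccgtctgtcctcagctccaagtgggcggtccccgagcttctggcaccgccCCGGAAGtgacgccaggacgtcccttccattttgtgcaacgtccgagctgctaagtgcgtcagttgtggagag

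The Srsf12 window held 1 p53 decamer, beginning 30 bases past the start site, and the same motif lay in the windows of 2 of the 45 splicing factor genes that matched this table (Srsf12 and Snrpe), against 8.36% of all 32851 windows. CCAAT began at -3 in the Srsf1 window and occurred 4 times in the Hnrnpc window, at -230, -189, -119 and -54 from the start site. It was found in 22 of the 45 genes, against 37.4% of all windows. CCGGAAG occurred at -90 and -23 in Srsf5 and in 16 of the 45 genes (35.6%), against 8.86% of all windows, and GGGCGG, the GC box, in 33 of the 45 (73.3%), against 35.7%. TTTGAA, part of a cell-cycle element, was found in 7 of the 45 genes, against 17.9% of all windows. All motifs were searched on both strands, none of these letter strings contains another, and both the motifs and the 4 genes were chosen with the expression values known. Genes with several start sites have several windows, so shares of genes and of windows are not on the same footing, and no binding or activity was measured at these letters. Sf3b4, Hnrnpul2, Hnrnpll, Snrpb, Snrpd1 and Sf3b5 were not matched.

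The 49 libraries held between 14422098 and 35185256 reads in genes. Between 0 h and 12 h of activation without dTAG13, the share of reads on the 51 genes was 1.65 ± 0.02% at 0 h, 1.62 ± 0.02% at 4 h, 1.26 ± 0.03% at 8 h and 1.14 ± 0.06% at 12 h (SD, n = 3 each), and 1.27% at 8 h and 1.15% at 12 h with dTAG13. Over the same libraries the summed level of 8 pluripotent cell markers (Pou5f1, Nanog and others) lay at 1071 to 1181 CPM at 12 h, against 5292 to 5349 CPM at 0 h, and mitochondrial transcripts took 3.7% of reads at 12 h, against 2.2% at 0 h. All 8 pluripotent markers had reads in the untreated cells, which are labelled as ES cells. Summed fibroblast or feeder markers stood at 50.9 to 64.4 CPM at 12 h and 19.7 to 23.3 CPM at 0 h, with Lum at 0 reads at 0 h. The p53 target Mdm2, encoding the ligase that degrades p53, was at 966 CPM after 4 h of activation, against 181 CPM at 0 h. In bulk RNA, fewer cells of a type and less RNA per cell cannot be told apart, and the part of these shifts in the results was not tested.

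Levels are given as CPM, reads relative to the library size as scaled by the authors, or per length of transcript as RPKM where genes are compared. At 0 h the most abundant transcripts per length were those of Hnrnpab (205 ± 12.8 RPKM), Snrpb (181 ± 8.04), Hnrnpu (172 ± 4.72), Srsf1 (163 ± 6.79) and Hnrnph1 (162 ± 5.58, SD, n = 3 each). The spreads of these neighbours overlapped for Snrpb and Hnrnpu, and for Hnrnpu, Srsf1 and Hnrnph1, so their order within each set is not resolved. The least abundant was Srsf12 (0.871 ± 0.058 RPKM), below Srsf4 (5.69 ± 0.41), Hnrnpr (6.36 ± 0.14), Hnrnpll (8.53 ± 0.20) and Snrpc (9.83 ± 0.75). Within families, the highest and lowest were Srsf1 and Srsf12, Hnrnpab and Hnrnpr, Sf3a3 (94.8 ± 2.40) and Sf3a2 (14.5 ± 2.51), and Snrpb and Snrpc. RPKM used the summed length of all annotated exons of a gene, so a gene whose transcripts use only some of them is given too low a value.

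To ask when activation of p53 was followed by a change in splicing factor transcripts, each time point was compared with 0 h. No library came from cells lacking p53, and the time course held no untreated cells at the later times. Effects of p53, of doxorubicin itself and of time in culture thus cannot be told apart. Activation of p53 names the treatment here, not the cause. A gene was called when its adjusted p lay below 0.01 and its log2 fold change was at least 0.75 in size (limma with Benjamini-Hochberg adjustment over all genes), and a looser rule asked only for an adjusted p below 0.05. Fold changes are on the deposited log2 scale, which adds a prior count of 8 reads and understates the change of low genes such as Srsf12. The same 3 libraries at 0 h served every time point with and without dTAG13.

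At 2 h of activation, 0 of the 51 genes were called with Trim24 present (background over all genes 3.74% in either direction) and 0 with Trim24 degraded (5.42%). At an unadjusted p below 0.05, limma found 4 higher and 7 lower with Trim24 present and 5 higher and 7 lower with Trim24 degraded, and limma-voom on recovered reads also called 0 in both. By the looser rule 5 passed with Trim24 present (background 16.5%) and 5 with Trim24 degraded (24.1%). Hnrnpa3, an hnRNP of the A and B group, passed it with Trim24 present at a log2 fold change of 0.33, as did Snrpd3, an Sm protein, at 0.25 and Srsf5 at 0.24, whereas Srsf2 and Srsf11 passed it at -0.35 and -0.18. When limma was run without its mean trend and robust steps, an alternative added after seeing the data and called plain limma below, Hnrnpa3 and Srsf2 kept this pass, and Snrpd3, Srsf5 and Srsf11 lost it. With Trim24 degraded, plain limma passed Hnrnpa3 and Srsf5, both higher.

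At 4 h, Srsf12 was the 1 splicing factor gene called. It rose, against a background of 12.9% of all genes higher, and 0 of the 51 genes were called lower, against 5.80%. With Trim24 degraded the counts were again 1 higher, Srsf12, and 0 lower, against 13.9% and 7.04% of all genes. Without a fold threshold, 21 genes passed the looser rule as lower (background 31.0%) and 9 as higher (28.7%) with Trim24 present, and 24 as lower (30.8%) and 8 as higher (31.0%) with Trim24 degraded. The counts of lower and higher genes depended on the scaling, at 14 and 20 after quantile normalization and 12 and 16 after total-count scaling with Trim24 present, and 16 and 18, and 16 and 12, with Trim24 degraded. Without a share of all genes for these scalings, the counts only describe the 51 genes. The lowest were Hnrnpdl at -0.64, Srsf2 at -0.56 and Srsf3 at -0.54, the 3 genes just outside the fold threshold. The median over the 51 genes was -0.05, beside -0.01 over all genes, and it turned to 0.06 after quantile normalization and 0.03 after scaling to the total count. Within families, Srsf genes had a median of -0.27 and Snrp genes one of 0.01 at this time.

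Srsf12 (chr4:33208991-33233340, plus strand) encodes an SR protein reported in human cells to counteract other SR proteins. With Trim24 present it had 2.59, 2.94 and 2.69 CPM at 0 h, 3.43, 2.78 and 3.05 CPM at 2 h, 7.92, 8.62 and 9.19 CPM at 4 h, 17.1, 16.6 and 19.8 CPM at 8 h and 21.5, 20.4 and 22.0 CPM at 12 h. From 4 h on, every library lay above every library at 0 h. With Trim24 degraded it had 3.38, 2.15 and 2.68 CPM at 2 h, 8.24, 8.502 and 8.54 CPM at 4 h, 16.7, 16.5 and 18.1 CPM at 8 h and 17.1, 18.1 and 17.8 CPM at 12 h. The log2 fold change with Trim24 present was 1.53 (SE 0.12) at 4 h and 2.81 (SE 0.11) at 12 h, with adjusted p of 2.77e-09 and 1.11e-13 (limma, n = 3 each). These levels rested on 46 to 60 reads per library at 0 h and 388 to 445 at 12 h. The rise remained past both thresholds after quantile normalization and after scaling to total counts, and 0% of its transcript lay in stretches of 50 bases shared with another gene.

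**Figure D1:**
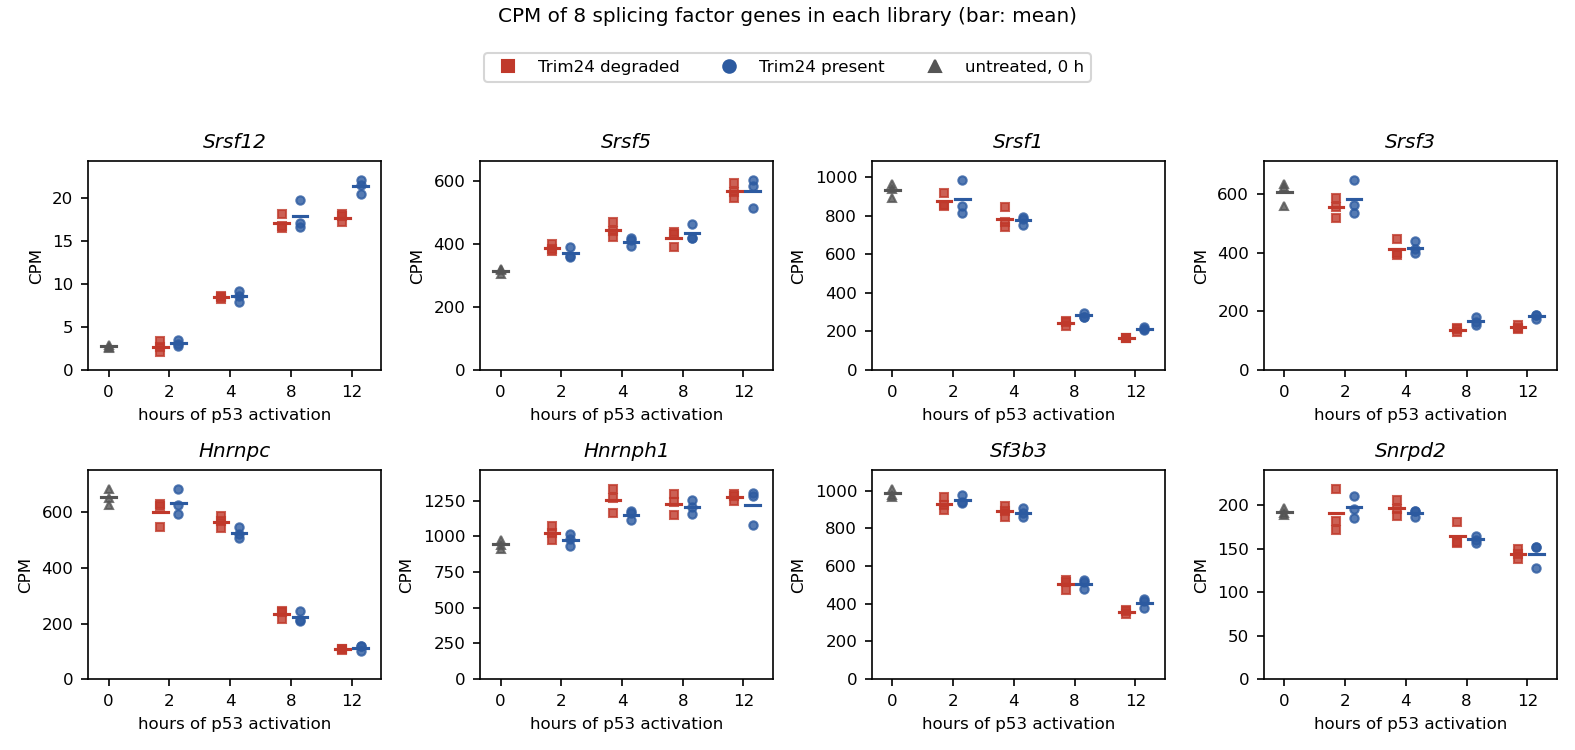
CPM (vertical axis, linear from 0) of 8 splicing factor genes against hours of p53 activation, with 1 point per library, a bar for the mean and separate colours for Trim24 degraded, Trim24 present and 0 h. Srsf12 lies between 20.4 and 22.0 CPM at 12 h with Trim24 present, against 2.59 to 2.94 CPM at 0 h, while Hnrnpc lies between 100.3 and 120.5 CPM, against 626 to 683 CPM.

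At 8 h with Trim24 present, 20 of the 51 genes fell (background 18.3% of all genes lower) and Srsf12 alone rose (27.0% higher). With Trim24 degraded, 23 fell (19.7%) and 1 rose (27.7%), the fallen being those same 20 and Srsf11, Snrpf and Snrpa. Without the fold threshold, 43 were lower with Trim24 present (40.0%) and 46 with Trim24 degraded (40.2%). The fallen genes with Trim24 present comprised 6 of 11 Srsf genes, 10 of 20 Hnrnp genes, 4 of 9 Sf3a and Sf3b genes and 0 of 11 Snrp genes. The median log2 fold change was -0.58 over the 51 genes, beside 0.02 over all genes tested, and 90.2% of the 51 genes had a value below 0, beside 49.2% of all genes. Scaling to the total count shifted the median of all genes at 8 h to 0.29 and left 13 of the 51 genes called (2 higher, 11 lower), with their median at -0.26.

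By 12 h, 29 of the 51 genes had fallen with Trim24 present (background 22.9%) and 2 had risen, Srsf12 and Srsf5 (30.3%). With Trim24 degraded, 31 had fallen (22.5%) and the same 2 genes had risen (30.7%). Srsf4 (-0.79), Snrpb2, Sf3a3 (-0.83) and Sf3b6 (-0.82) were called lower only with Trim24 degraded, and Hnrnpa0 and Snrpb only with Trim24 present, while the direct comparison of the 2 conditions, given further on, called none of them. Under the looser rule 45 were lower both with Trim24 present (40.8%) and with Trim24 degraded (40.4%). The fallen genes with Trim24 present comprised 7 of 11 Srsf genes (family median -1.01), 14 of 20 Hnrnp genes (-1.03), 5 of 9 Sf3a and Sf3b genes (-0.90) and 3 of 11 Snrp genes (-0.51). The median was -0.94 over the 51 genes and 0.04 over all genes. Quantile normalization left 19 called (3 higher, 16 lower) with a median of -0.42, and total-count scaling left 20 (2 higher, 18 lower) with a median of -0.62, while the median of all genes moved to -0.11 and 0.32. Just inside the fold threshold lay Snrpb (-0.79), Srsf5 (0.85) and Sf3b1 (-0.90), and just outside it Snrpb2 (-0.73), Snrpd3 (-0.64) and Sf3a3 (-0.63).

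**Figure D2:**
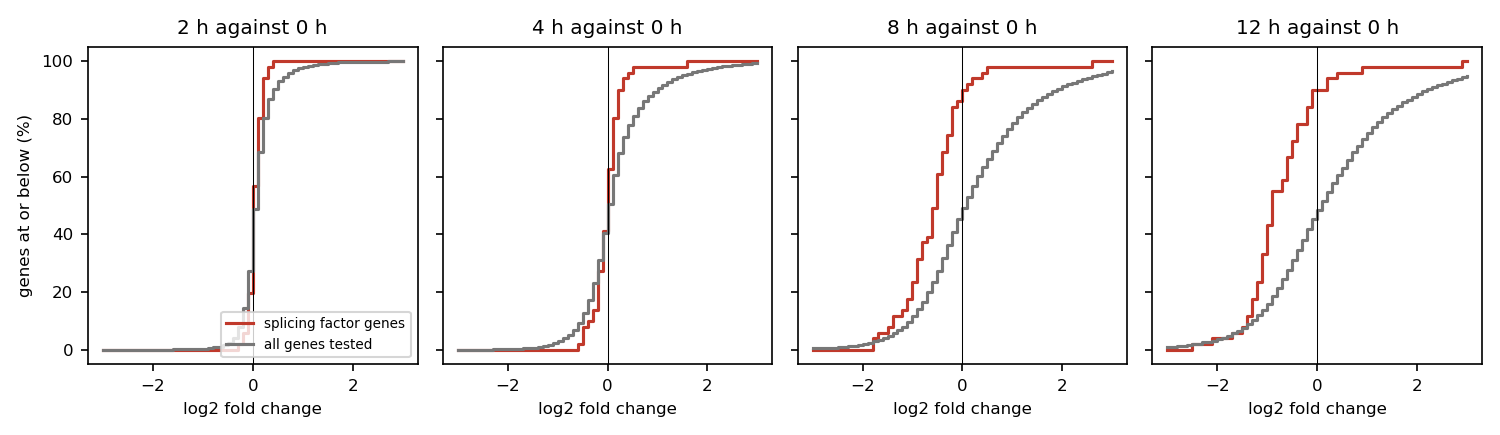
Cumulative share of genes (vertical axis, %) at or below each log2 fold change against 0 h (horizontal axis) for the 51 splicing factor genes and for all genes tested, at 2, 4, 8 and 12 h with Trim24 present. At 2 h and 4 h 56.9% and 62.7% of the splicing factor genes lie below 0, and at 8 h and 12 h 90.2% do, beside 48.6% to 50.7% of all genes.

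Among the SR proteins, Srsf1 (chr11:88047373-88053755, plus strand), which binds exonic enhancers and is required for the viability of many cells, fell furthest at 12 h. It had 967, 890.3 and 941 CPM at 0 h, 751, 792 and 784 CPM at 4 h, 298, 275 and 276 CPM at 8 h and 223, 208 and 214 CPM at 12 h with Trim24 present. With Trim24 degraded it had 164, 166 and 166 CPM at 12 h. The groups at 8 h and 12 h overlapped neither with 0 h nor with each other. Its log2 fold change at 12 h was -2.12 (SE 0.06, adjusted p 8.86e-16, limma, n = 3 each) with Trim24 present and -2.49 with Trim24 degraded, and 23.0% and 17.7% of the level at 0 h remained. Srsf3 (chr17:29032628-29043373, plus strand), the smallest SR protein, had 607 ± 40.2 CPM at 0 h, 417 ± 21.4 CPM at 4 h, 167 ± 14.6 CPM at 8 h and 184 ± 7.34 CPM at 12 h (SD, n = 3 each), with log2 fold changes of -1.86 at 8 h and -1.72 at 12 h. Srsf2 (SC35), a component of nuclear speckles, had values of -1.46 and -1.39 at those times, and Srsf10, whose dephosphorylation represses splicing, -1.21 and -1.41.

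Srsf6 and Srsf7 were called lower at both 8 h and 12 h, with log2 fold changes of -1.12 and -0.92 at 12 h, and Srsf9 at 12 h only (-1.01). Srsf11 and Srsf4 were not called at either time with Trim24 present, at -0.63 and -0.23 at 12 h, and Srsf4 changed sign to 0.08 under total-count scaling. Srsf5 (chr12:80945504-80950507, plus strand), an SR protein first described in rat as a gene induced by insulin, had the opposite sign. It had 321, 304 and 317 CPM at 0 h, 391.7, 411 and 417 CPM at 4 h, 463, 418 and 419 CPM at 8 h and 602, 513 and 584 CPM at 12 h with Trim24 present, and 546, 565 and 593 CPM at 12 h with Trim24 degraded. All 12-h libraries lay above all 0-h libraries, and the log2 fold change was 0.85 both with Trim24 present (SE 0.06, adjusted p 1.03e-09, limma, n = 3 each) and with Trim24 degraded. Its direction was the same under quantile and total-count scaling at 4, 8 and 12 h.

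Among the hnRNPs, Hnrnpc (chr14:52073377-52104028, minus strand), which binds uridine tracts and packages nascent transcripts, fell furthest of the 51 genes. It had 652, 626 and 683 CPM at 0 h, 508, 546 and 524 CPM at 4 h, 246, 208 and 214 CPM at 8 h and 120.5, 100.3 and 119 CPM at 12 h with Trim24 present, and 107, 104 and 109 CPM at 12 h with Trim24 degraded. The 12-h libraries lay below all 8-h libraries, and those below all 4-h libraries. Its log2 fold change at 12 h was -2.53 (SE 0.07, adjusted p 1.14e-15, limma, n = 3 each) with Trim24 present, leaving 17.3% of the level at 0 h. It was also the 1 splicing factor gene called lower between 12 h and 8 h, at -0.98, against 2.24% of all genes, whereas 22 passed the looser rule as lower in that step (19.7%).

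Hnrnpdl, a paralog of the AU-rich element binding protein Hnrnpd, had 399 ± 14.8 CPM at 0 h, 256 ± 1.17 CPM at 4 h, 110 ± 3.70 CPM at 8 h and 134 ± 11.1 CPM at 12 h (SD, n = 3 each). Its lowest mean was thus at 8 h, with a log2 fold change of -1.85, against -1.57 at 12 h, and it passed the looser rule as higher between 12 h and 8 h (0.29), as did Srsf5 (0.38) and Srsf12 (0.26), against a background of 21.6%. In plain limma 12 genes were lower in that step, and Hnrnpdl and Srsf5 higher, while Srsf12 lost its pass. Hnrnpr, which binds RNA in nuclei and neuronal processes, was at -1.49 and -1.33, and Hnrnpd itself at -1.08 and -1.24. Hnrnpa0, Hnrnpab, Hnrnpu and Hnrnpul1 were called lower at both times, at -1.18, -1.14, -0.96 and -1.12 at 12 h, and Hnrnpk, Hnrnpm, Hnrnpl and Hnrnpa2b1 only at 12 h, at -1.02, -1.04, -0.94 and -0.99. Hnrnpu binds nuclear matrix and chromatin-associated RNA, and Hnrnpk binds cytidine-rich tracts. Of those called only at 12 h, each passed the looser rule as lower at 8 h too.

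The hnRNP F and H group, which binds guanosine runs, split by gene. Hnrnpf fell at 12 h (-1.37, SE 0.06), with 177, 156 and 166 CPM at 12 h against 431, 427 and 427 CPM at 0 h, and Hnrnph2 fell (-1.44, SE 0.08), with 37.1, 28.2 and 34.0 CPM against 90.4, 89.0 and 91.3 CPM. Their paralog Hnrnph1 had 1280, 1078 and 1304 CPM at 12 h against 978, 913 and 943 CPM at 0 h, without overlap, a log2 fold change of 0.37 (SE 0.07) that passed only the looser rule. Hnrnph3 was at 0.12 (SE 0.14), with overlapping groups. Hnrnph1 kept its direction under both other scalings at 4, 8 and 12 h and would be called higher at 12 h after quantile normalization (0.97). Hnrnpa3 stood at 0.41 at 4 h, past the looser rule, and at -0.05 and -0.14 at 8 h and 12 h, where quantile normalization (0.25 and 0.10) and total-count scaling (0.27 and 0.17) both turned it positive. Hnrnpa1 was at -0.54 at 12 h and turned to 0.03 after quantile normalization.

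Of the U2 snRNP genes, 4 of the 6 SF3B genes and 1 of the 3 SF3A genes fell at 12 h, groups formed after the values were seen. Sf3b3, a scaffold subunit, had 414, 427 and 377 CPM at 12 h against 979, 967 and 1009 CPM at 0 h (log2 fold change -1.28, SE 0.06, adjusted p 1.1e-12, limma, n = 3 each). Sf3b1, which clamps the branch-point helix, had 459, 426 and 422 CPM against 818, 780 and 848 CPM (-0.90, SE 0.06). All 12-h values of both genes lay below all 0-h values. Sf3b4, Sf3b2 and Sf3a2 were at -1.13, -1.05 and -1.08. The small subunit Sf3b5 did not follow, at 0.11 (SE 0.07), with 139, 130.1 and 152 CPM at 12 h overlapping 129, 143 and 120 CPM at 0 h. Sf3b6 was at -0.52, past the looser rule only.

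Snrp genes had the median nearest to 0 of the 4 families at 8 h and 12 h. Of the 7 Sm ring genes, also grouped after the values were seen, Snrpb alone fell at 12 h (-0.79, SE 0.06), with 206, 219 and 194 CPM against 346.5, 376 and 350.2 CPM at 0 h. The group's median was -0.49 at 12 h, and at 8 h it was -0.26 and turned to 0.10 and 0.06 under quantile and total-count scaling. Snrpg, the smallest ring member, was at -0.17 at 12 h and turned to 0.15 under total-count scaling. Of the U1 and U2 proteins, Snrpa, of the U1 snRNP, fell by 1.22 on the log2 scale and Snrpa1, of the U2 snRNP, by 0.96, whereas Snrpc, also of the U1 snRNP, was at -0.13 (SE 0.07) and turned to 0.19 under total-count scaling. Snrpa had 53.2, 45.5 and 51.9 CPM at 12 h, below the 108, 131 and 113 CPM at 0 h. Snrpf values are uncertain, since 85.4% of its exon bases also lie in exons of Ccdc38 and 4933408J17Rik.

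**Figure D3:**
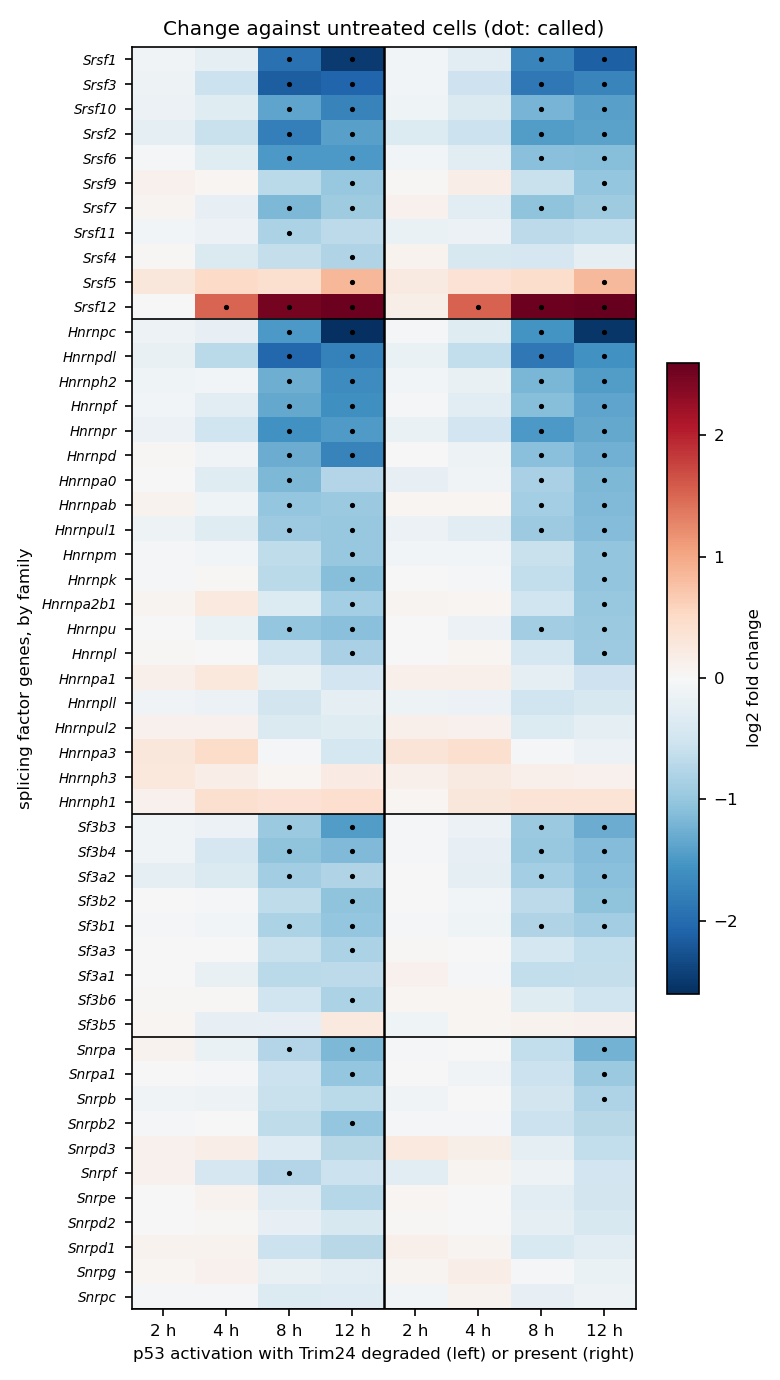
Log2 fold change against 0 h (colour, red for higher and blue for lower) of the 51 splicing factor genes (rows, by family) at 2, 4, 8 and 12 h with Trim24 degraded and with Trim24 present (columns), with a dot where a gene was called. Dots appear in 1 row at 4 h, Srsf12, and in 31 rows at 12 h with Trim24 present, 29 of them lower.

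Between 4 h and 8 h, 16 of the 51 genes were called lower (background 7.70%) and 1, Srsf12, higher (16.6%). The lowest values were those of Srsf1 (-1.46), Srsf3 (-1.32), Hnrnpc (-1.24) and Hnrnpdl (-1.22). This comparison shares its 4-h and 8-h libraries with those above. With Trim24 present, the mean was lowest at 12 h for 34 genes, at 8 h for 12, at 2 h for 1 and at 0 h for 4. Quantile normalization left 9 genes called in this step and total-count scaling 6. As a description over the 51 genes, the 12-h fold change had a Spearman correlation of -0.31 with RPKM at 0 h, -0.27 without Srsf12, and of -0.005 with gene length and with the number of exon blocks. These points share the same libraries.

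To see whether splicing factor transcripts depended on Trim24, cells with Trim24 degraded were compared with cells with Trim24 present at each time. Only tagged cells received dTAG13, so effects of the compound itself and of Trim24 loss cannot be told apart. Trim24 loss names the treatment here, not the cause. In the cells named Trim24 present, Trim24 RNA stood at 67.2 CPM at 8 h and 69.7 CPM at 12 h, against 211 CPM at 0 h. Whether Trim24 protein followed its RNA at these times was not tested. By the main rule 0 of the 51 genes were called at 2 h (background 0.338%), 4 h (1.15%), 8 h (1.58%) or 12 h (4.11%), and limma-voom also called 0 at each. At an unadjusted p below 0.05, limma found 3 higher and 0 lower at 2 h, 5 higher and 9 lower at 4 h, 0 higher and 11 lower at 8 h and 3 higher and 19 lower at 12 h. The share of all genes at that p is not given here, so these counts only describe the 51 genes. Under the looser rule 0 passed at 2 h (background 0.841%), 4 were lower at 4 h (6.20%), 6 at 8 h (7.38%) and 17 at 12 h (18.0%), where 2 were also higher (13.4%). These counts were 0, 0, 1 and 8 for lower genes in plain limma, with 0 higher at each time. Quantile normalization gave 3 lower genes and 1 higher at 4 h, 7 lower and 3 higher at 8 h, and 10 lower and 7 higher at 12 h. Total-count scaling gave 4 lower and 0 higher at 4 h, 8 lower and 3 higher at 8 h, and 11 lower and 6 higher at 12 h. No share of all genes is given for those scalings or for plain limma, so the backgrounds above do not apply to these counts. The median at 12 h was -0.07 over the 51 genes and -0.02 over all genes, and after quantile normalization or total-count scaling it was -0.00 or 0.00.

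The genes lower under the looser rule at 12 h included 6 Srsf genes. Srsf4 had 12.3, 11.1 and 11.3 CPM with Trim24 degraded, against 16.8, 15.98 and 18.9 CPM with Trim24 present, a log2 difference of -0.56 (SE 0.10, adjusted p 0.000129, limma, n = 3 each), though 65.4% of its transcript lies in 50-base stretches that other genes share. Srsf1 was at -0.38, Srsf6 at -0.37, and Srsf3 and Srsf10 at -0.34. Srsf6 had 187, 181 and 191 CPM with Trim24 degraded, against 249, 232 and 242 CPM with Trim24 present at 12 h, and 174, 190 and 191 CPM against 257, 242 and 240.5 CPM at 8 h, with no overlap at either time. Hnrnpd had 45.1, 44.1 and 41.1 CPM, against 57.9, 58.1 and 67.1 CPM (-0.48, SE 0.08). Sf3a2 (0.30) and Hnrnpll (0.19) passed the looser rule as higher. Srsf1, Srsf3, Srsf4, Srsf6, Srsf10, Srsf12, Hnrnpa3 and Hnrnpd were the 8 lower at 12 h in plain limma.

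The effect of Trim24 loss was compared directly between times. By the main rule 0 of the 51 genes differed between 2 h and 4 h (background 0.0485%), 8 h and 4 h (0.113%) or 12 h and 4 h (3.51%). At an unadjusted p below 0.05, limma found 6 more positive and 1 more negative at 2 h, against 1046 and 737 of 16508 genes. It found 0 and 8 at 8 h, against 552 and 1322 of 17713, and 9 and 17 at 12 h, against 2644 and 3479 of 17217. Under the looser rule 1 gene, Srsf6, differed between 8 h and 4 h (-0.37, SE 0.09, background 0.604%) and 14 genes (27.5%) between 12 h and 4 h, near the background of 23.3%. In plain limma these counts were 0 and 7. Of those 14, 11 had a more negative difference at 12 h, led by Srsf4 (-0.59, SE 0.13) and Hnrnpd (-0.52, SE 0.09), and 3 a more positive one, Sf3a2, Sf3b5 and Hnrnpab. In cells without p53 activation, Trim24 loss left 0 of the 51 genes called by limma (background 0.0781%) or by limma-voom and 0 by the looser rule (0.365%), although 3 genes, all higher, had an unadjusted p below 0.05. Srsf12 there had 2.45, 2.40 and 1.80 CPM after dTAG13 and 1.67, 1.93 and 1.31 CPM in untreated cells, which overlapped. Summed primitive endoderm markers in these libraries stood at 473 to 546 CPM after dTAG13 and 484 to 530 CPM in untreated cells. At 0 h of the time course, normalized apart, they stood at 40.1 to 44.2 CPM, and the part of this difference was not tested.

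Wild-type cells were examined to see whether changes seen in the tagged line also appeared there. Since the duration of their doxorubicin is not labelled, the falls at 8 h and 12 h could not be matched to them. With 2 libraries in each group, Srsf12 was again the 1 gene called, and it rose, against 7.99% of all genes higher. It had 8.92 and 7.90 CPM after doxorubicin and 2.88 and 2.64 CPM in untreated cells, a log2 fold change of 1.49 (SE 0.14). Under the looser rule 12 genes were lower (background 18.0%), among them Hnrnpdl (-0.47), Hnrnpr (-0.43), Srsf3 (-0.43), Srsf2 (-0.36) and Srsf1 (-0.28), and 3 higher (18.1%), Srsf12, Hnrnpa3 and Hnrnph1. The lower genes numbered 7 after quantile normalization and 5 after total-count scaling, and the higher ones 4 and 3, while the median over the 51 genes, -0.11, came to -0.02 under both. Hnrnpdl had 360 and 327 CPM after doxorubicin and 512 and 441 CPM in untreated cells. In plain limma 4 passed in place of 15, namely Srsf12, Hnrnpdl, Hnrnpr and Srsf3. In this comparison, and in those with 8-h libraries, limma pooled the spread over all genes almost completely, so its p-values are small for so few libraries and are not printed here.

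In the RING experiment, p53 was active for 4 h in all 12 libraries, and the tables were normalized apart from those above, so levels are compared only within it. With Trim24 degraded against Trim24 present, 0 of the 51 genes were called by limma (background 1.15%) or limma-voom, although an unadjusted p below 0.05 was found for 23 genes with a higher and 3 with a lower level. The share of all genes at that p is not given here. By the looser rule 17 were higher (15.3%) and 2 lower (7.02%), but 12 higher and 8 lower after quantile normalization and 13 and 8 after total-count scaling, and 11 and 0 in plain limma. The median of 0.10, beside 0.02 over all genes, became 0.03 under both scalings. Libraries with Trim24 degraded held 24492233 to 33893100 reads, against 16669410 to 21072810 with Trim24 present, and the part of depth was not tested.

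Snrpd3, which encodes the ring protein SmD3, had the largest value. It had 148, 139.5, 178 and 159 CPM with Trim24 degraded, 106.5, 76.9, 75.1 and 94.0 CPM in ligase-null cells and 99.95, 94.1, 94.0 and 99.5 CPM with Trim24 present. All Trim24-degraded libraries lay above all others, with a log2 difference of 0.68 (SE 0.06, adjusted p 4.38e-11, limma, n = 4 each) against Trim24 present. In the main time course the same contrast at 4 h gave 0.02 (SE 0.05), with overlapping groups, and the difference between the experiments was not tested. Hnrnpa2b1, an hnRNP of the A and B group, had 494.5, 454, 567 and 546 CPM with Trim24 degraded, 426, 310.4, 285 and 355 CPM in ligase-null cells and 362, 355, 349 and 354 CPM with Trim24 present, a difference of 0.53 (SE 0.05) for degraded against present. The time-course value at 4 h was 0.21 (SE 0.07, adjusted p 0.0716). Hnrnpul2 (0.44), Hnrnpa1 (0.35), Hnrnph3 (0.33), Hnrnph1, Snrpd1 and Snrpd2 (0.30 each) and Hnrnpm (0.29) followed, and Srsf2 (-0.22) and Sf3b4 (-0.18) were the 2 lower.

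Ligase-null cells against cells with intact Trim24 gave 0 calls by limma (background 6.95%) and by limma-voom, although an unadjusted p below 0.05 was found for 28 genes, all lower in ligase-null cells. The share of all genes at that p is not given here, so this count only describes the 51 genes. By the looser rule 25 were lower (22.0%) and 0 higher, and in plain limma 16 were lower and 0 higher. Sf3b4 had the lowest value, -0.50, with 23.0, 22.0, 23.1 and 22.9 CPM in ligase-null cells and 33.7, 32.9, 34.2 and 29.0 CPM with Trim24 present, though 51.2% of its transcript lies in 50-base stretches shared with other genes. Against Trim24-degraded cells, 1 of the 51 genes was called, lower in ligase-null cells (background 1.85%). This was Snrpd3 at -0.83 (SE 0.13, adjusted p 0.000658, limma, n = 4 each), which came to -0.73 under quantile normalization and -0.71 under total-count scaling, both short of the fold threshold. By the looser rule 38 were lower (30.3%), and 29 and 28 under those scalings. Against Trim24 present, the lower and higher genes numbered 21 and 3 after quantile normalization and 24 and 2 after total-count scaling.

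Ligase-null libraries also differed from both other groups in other respects. Summed primitive endoderm markers stood at 72.4 to 79.7 CPM in ligase-null cells, 14.7 to 16.9 CPM with Trim24 degraded and 10.2 to 12.9 CPM with Trim24 present. Neuroectoderm markers summed to 99.9 to 119 CPM in ligase-null cells, 189 to 207 CPM with Trim24 degraded and 175 to 200.4 CPM with Trim24 present. Feeder markers summed to 13.4 to 14.002 CPM in ligase-null cells, 26.7 to 28.3 CPM with Trim24 degraded and 26.7 to 30.6 CPM with Trim24 present. Mitochondrial transcripts took 2.78 to 3.06% of reads in ligase-null cells, 2.33 to 2.70% with Trim24 degraded and 2.19 to 2.43% with Trim24 present. Ligase-null replicate 1 stood apart from the other 3, with a ratio of total reads to the scaled library size of 1.04, against 0.953 to 0.961, and a summed level of the 51 genes of 15009 CPM, against 13290 to 13644 CPM. Without it, an alternative added after seeing the data, 36 genes were lower than with Trim24 present and 38 lower than with Trim24 degraded by the looser rule, with 0 higher in either comparison, and the main rule called 0 and 1, Snrpd3 (-0.93). The share of all genes passing was not computed without this replicate, so these counts only describe the 51 genes. The part of the shifts above in the values of ligase-null cells was not tested.

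**Figure D4:**
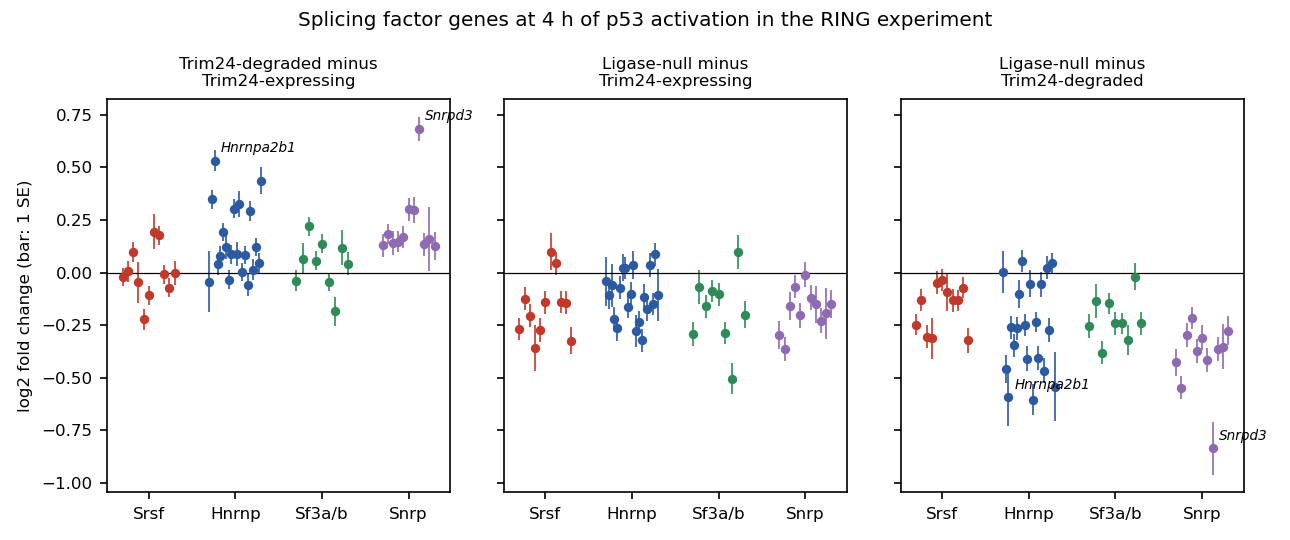
Log2 fold change (vertical axis, points by gene with bars of 1 SE) of the 51 splicing factor genes by family for the 3 contrasts of the RING experiment at 4 h of p53 activation. Snrpd3 and Hnrnpa2b1, named in the panels, stand highest for Trim24 degraded against present, at 0.68 and 0.53, and Snrpd3 lowest for ligase-null against Trim24-degraded cells, at -0.83.

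Other genes of the splicing pathway, from lists fixed with earlier results of these data known, were read at 12 h with Trim24 present, beside the same backgrounds of 22.9% lower and 30.3% higher. Of 16 genes for snRNP assembly (the SMN complex, the methylosome and transport of snRNAs), 11 fell and 0 rose, with a median of -1.06. They included Coil (-1.81), the marker of Cajal bodies, Prmt5 (-1.68), which methylates Sm proteins, Gemin2 (-1.38) and Gemin7 (-1.29). Of 46 further core spliceosome genes, 15 fell and 1 rose (median -0.52), among them Rbm8a (-1.68), of the exon junction complex, Cdc5l (-1.62), Dhx15 (-1.35) and Bcas2 (-1.33). Of 7 Snrnp genes, which the symbol rule leaves out, 2 fell, Snrnp40 (-1.50) and Snrnp70 (-1.36), the U1 snRNP protein of that name.

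Among the 10 Lsm genes, whose proteins form Sm-like rings, 4 fell and 0 rose, led by Lsm3 (-0.999) and Lsm2 (-0.99). Of 11 kinases and import factors of SR proteins, 3 fell and 1 rose, namely Srpk1 (-1.20), Srpk3 (-1.09) and Clk2 (-0.81), against Clk3 (0.89). Of 53 tested SR-related and other regulators, 20 fell and 7 rose, with the epithelial regulator Esrp1 at -3.47, the neuronal regulators Rbfox3 at 2.26 and Srrm4 at -1.63, and Nono, a paraspeckle protein, at -2.14. Of 8 minor spliceosome genes, 2 fell, Zmat5 (-1.48) and Scnm1 (-0.85). Of 10 genes of nonsense-mediated decay, which degrades the transcripts that many SR genes make by including their poison exons, 5 fell and 1 rose, with Smg5 at -1.29. Of the 8 p53 check genes 6 rose, with Fas at 6.00, Btg2 at 3.22 and Mdm2 at 2.69. The 2 that fell were Trp53, which encodes p53 itself (90.8 CPM at 12 h, 292 CPM at 0 h), and Trim24 (69.7 CPM, 211 CPM).

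How far reads could be assigned to single genes varied among the 51. In GENCODE M21 on GRCm38, 22 of them share exon bases with another gene, 8 over more than 10% of their exon bases, and 13 have more than 25% of their 50-base stretches in another gene. Besides Snrpf (89.5%) and Srsf4 these were Hnrnpf (67.3%), Sf3b4, Hnrnpa1 (46.4%), Hnrnpk (37.8%), Srsf2 (35.2%), Srsf3 (31.5%), Snrpa (31.1%), Hnrnpab (29.0%), Hnrnpm (28.8%), Hnrnpa3 (28.2%) and Srsf5 (27.8%). Their values are uncertain to that extent, since reads with several placements were placed at random and reads over 2 genes dropped. For Srsf1 (0.979%) and Hnrnpc (12.3%) the share was lower. The rank correlation of this share with the 12-h fold change was -0.10 over the 51 genes.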

How the data were processed

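The authors demultiplexed reads with bcl2fastq (2.17 and 2.20), aligned them to mm10 with STAR, placing reads with several matches at random, and counted them per protein-coding gene symbol with featureCounts. The deposited values are log2 CPM made with edgeR by the authors, with a prior count of 8. From these, reads were recovered by rounding. A check over values above the floor and below a set read count found 100% whole (tolerance 0.01), and higher values were not checked. The unit being log2, comparisons were fitted with limma 3.58.1 (R 4.3.3, trend and robust), on the groups compared only, for genes lying 0.5 above the floor of -1.48 in as many libraries as the smaller group. The procedure was tested on simulated data. Tables and figures were made with Python 3.11.15 and pandas 2.3.3. The labels do not say whether replicates were separate cultures, so p-values measure only the spread between these samples.

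The members and gene lists were chosen with earlier results of these data known. Named genes were called members (the 20 largest changes where more were called), the 2 largest rises and falls per family at 4 h and 12 h, extremes of level, the 3 members on either side of the fold threshold, members with shared reads, and up to 4 genes of each other list. Other members are named where their values are described, chosen after these were seen. Alternatives were quantile normalization, another prior count, no filter, voom on recovered reads, a looser rule, a replicate block, leaving out each library, and, added after seeing the data, total-count scaling, limma without trend and robust steps, and the looser rule without ligase-null replicate 1. Same-numbered replicates did not deviate together throughout (correlations from -0.207 to 0.205), so numbers were not taken to pair libraries. A gene of the other lists is not reported here.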

Additional observations from a re-analysis of the deposited data

Results flagged for a closer look

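The check covered 153 sets of values, each of 1 gene in 1 group of 4 libraries. In 5 of these (3.27%), a library lay further from the others than Dixon's 95% critical value allows, and chance alone flags about 1 in 20. Only the RING experiment had groups of 4, so all 5 were bound to lie there, and no other group was examined. Srsf5 stood at 444 CPM in ligase-null replicate 1, against 386 to 393 CPM in the other 3 libraries, and Sf3b4 at 22.0 CPM in ligase-null replicate 2, against 22.9 to 23.1 CPM. Hnrnpk stood at 682 CPM in replicate 5 with Trim24 degraded, against 719 to 727 CPM. With Trim24 present, Hnrnpf stood at 316 CPM in replicate 7, against 348 to 353 CPM, and Hnrnpu at 1676 CPM in replicate 6, against 1620 to 1629 CPM.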

How the results depend on the processing

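Across alternatives, 244 counts of called splicing factor genes stayed within 1.5 times and 30 moved. A count that stayed at 0, as in many of these comparisons, was taken as unmoved. Single called genes were followed only at 4, 8 and 12 h with Trim24 present, in wild-type cells, for 12 h against 8 h and for ligase-null against degraded. There, with no library left out, 346 values kept their call, 45 lost it (24 under quantile normalization, 21 under total-count scaling) and 0 reversed. The called genes were 1, 21 and 31 at 4, 8 and 12 h and 1 in each other comparison, each counted once per setting. All other settings kept the authors' scaling and lost no call, so 346 does not measure stability under rescaling. Total-count scaling, and limma without trend and robust steps, were chosen after seeing the data. Under the looser rule the genes passing numbered 5, 30, 46 and 48 at 2, 4, 8 and 12 h of activation with Trim24 present and 5, 32, 49 and 50 with Trim24 degraded. For Trim24 loss they numbered 4, 6 and 19 at 4, 8 and 12 h, and for its change 1 between 8 h and 4 h and 14 between 12 h and 4 h. They numbered 45 for 8 h against 4 h. The share of all genes passing the looser rule in that step is not given here, so this count only describes the splicing factor genes. Genes passing numbered 25 for 12 h against 8 h, 15 in wild-type cells and 19 in the RING experiment for Trim24 loss. For ligase-null cells they numbered 25 against Trim24 present and 38 against Trim24 degraded. Total-count scaling left 13 called at 8 h and 20 at 12 h with Trim24 present, 17 at 12 h with Trim24 degraded, 6 for 8 h against 4 h and 0 for ligase-null against degraded. Quantile normalization left 19 and 20 at 12 h with Trim24 present and degraded, 9 for 8 h against 4 h and 0 for ligase-null against degraded. Leaving out 1 library gave 20 to 21 calls at 8 h and 31 to 32 at 12 h with Trim24 present, 22 to 25 and 32 to 36 with Trim24 degraded, 14 to 19 for 8 h against 4 h, and 0 to 1 for Trim24 loss at 8 h, where Snrpf was called without replicate 2 of the degraded or replicate 3 of the Trim24-present libraries. The cause of these shifts was not tested. With the replicate number as a block, the counts were 21 and 31 at 8 h and 12 h with Trim24 present, 24 and 34 with Trim24 degraded and 17 for 8 h against 4 h. No other count moved by over 1.5 times with the block, and none could be fitted for the ligase-null comparisons, which share fewer than 2 numbers. Every sample correlated best with its own number at 12 h with Trim24 degraded and for Trim24 loss at 4 h, a hint from the data only. Plain limma without trend and robust steps gave the same calls by the main rule within 1.5 times. Under the looser rule it gave 6 higher and 17 lower at 4 h and 3 and 41 at 12 h with Trim24 present. Depth limits Srsf12 most, with 46 to 60 reads at 0 h.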
